A study of Mus musculus with 8 samples.

Results

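The genes described here are the 4 Notch receptors of the mouse (Notch1, Notch2, Notch3 and Notch4), 5 of their ligands (Dll1, Dll3, Dll4, Jag1 and Jag2) and Hes1, a target gene of the pathway. They were chosen by name, with earlier results of these data known. All 10 are among the 22367 protein-coding genes on the nuclear chromosomes of the GENCODE annotation (release M1) of the mm9 assembly. For each gene, the peaks of 5-hydroxymethylcytosine (5hmC) that touch the gene or the 10 kb on either side of it were collected from 6 peak lists, 733 peaks in all. Positions are in bp from the 5′ end of the annotated gene, called the TSS, and are negative upstream of it.

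Notch receptors are transmembrane proteins that bind ligands of the Delta-like and Jagged types on neighbouring cells. The bound receptor is cut by ADAM proteases and by γ-secretase, and its freed intracellular domain joins the DNA-binding protein RBPJ in the nucleus, where it turns on genes such as Hes1, a repressor of transcription that delays differentiation. The pathway controls cell fate choices in the embryo, maintains neural progenitors in the brain, and directs bile duct formation in the liver. 5hmC is made by TET enzymes from 5-methylcytosine, and in embryonic stem cells (ESCs) 1 of these, Tet1, is found at many promoters that carry the marks of the Polycomb complex PRC2.

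The 5hmC lists come from GLIB-Seq, in which 5hmC is tagged with a modified glucose and biotin and the tagged DNA is captured and sequenced. There was 1 library for each of 6 conditions: ESC, the E14 line of mouse ESCs; MEF, primary embryonic fibroblasts of C57BL/6 mice; Brain and Liver, each from C57BL/6 mice of 8 weeks; and E14 cells transfected either with a control hairpin that targets GFP (shGFP) or with a hairpin that targets Suz12, a core subunit of PRC2 (shSuz12). The MEF label gives embryonic day 11, and the methods of the study give a later day. All 3 ESC libraries are of the same line, and the Suz12 hairpin used for the shSuz12 library is not named in the sources used here. Brain and liver are whole tissues, so fewer cells with 5hmC and less 5hmC per cell cannot be told apart. The lists hold no RNA values, so neither the cell types nor the loss of Suz12 could be checked from them.

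The deposited value of a peak is its MACS score, read here as -log10 of the peak's p-value multiplied by 10. The lowest score was 80 in the lists of ESC and liver, 30 in those of MEF and brain, 50.02 in shGFP and 30.34 in shSuz12. The lists cover between 83.5 Mb (shSuz12) and 208 Mb (MEF) of the genome, and without read counts the sequencing depth is unknown. Scores are therefore placed within their own list as a percentile, and coverage is set beside that of all protein-coding genes in the same list. With 1 library per condition there is no spread between replicates and no test, and every difference below is a difference between lists.

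In every list a larger share of the Notch genes lay under 5hmC peaks than of the median gene. The median over the 10 genes of the share of the gene and its flanks that lay under peaks was 24.4% in ESC, 17.8% in MEF, 19.6% in brain, 22.9% in liver, 17.6% in shGFP and 12.2% in shSuz12. The medians over all protein-coding genes were 9.89%, 6.42%, 8.25%, 7.68%, 5.96% and 4.33%, in the same order. A peak overlapped the gene itself in 9 members in ESC (67.8% of all genes), 8 in MEF (61%), 8 in brain (60.7%), 7 in liver (57.9%), 9 in shGFP (63.4%) and 9 in shSuz12 (63%). With the flanks, all 10 genes had a peak in ESC (77.6% of all genes), MEF (75.8%), liver (68%), shGFP (75.8%) and shSuz12 (76.2%), and 9 did in brain (72.2%), where Dll3 had none. The 10 genes differed widely from each other, and no cell type had the highest coverage of all of them. Jag2 was the most covered member in ESC, brain, shGFP and shSuz12, whereas Notch2 was the most covered in MEF and liver.

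**Figure D1:**
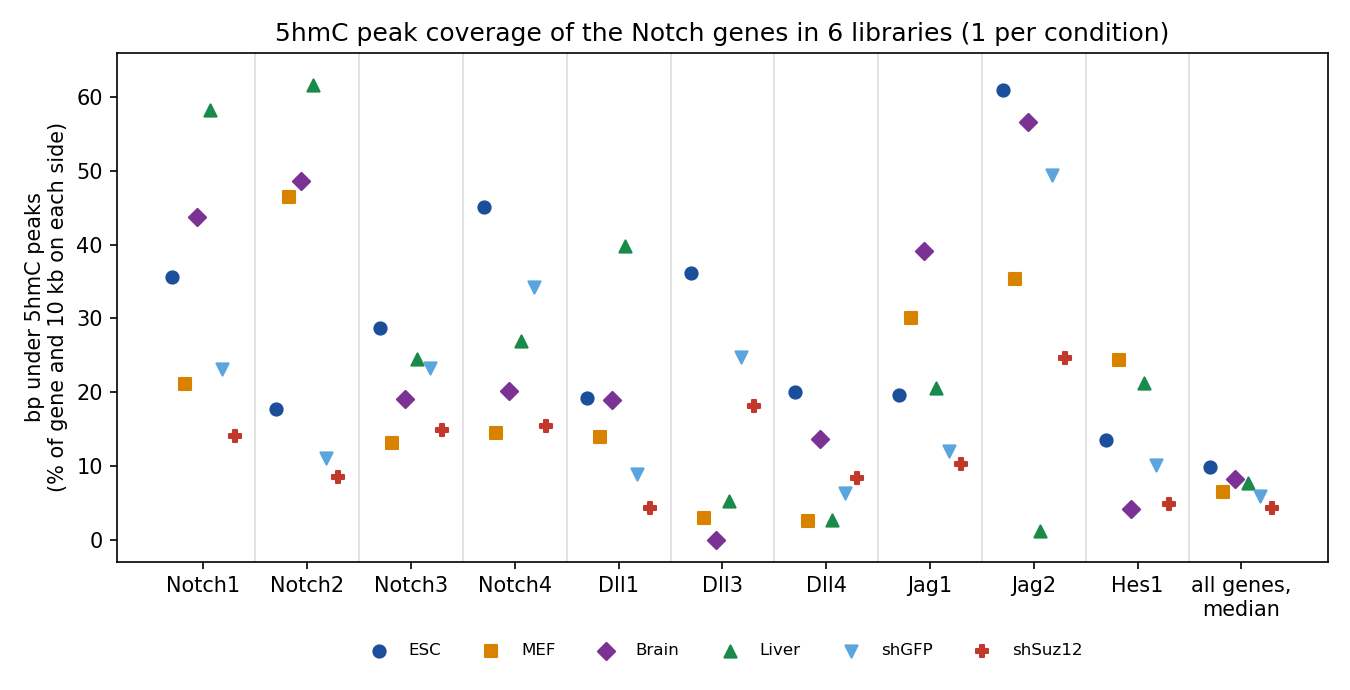
Share of each Notch gene and its flanks of 10 kb (y axis, % of bp) under 5hmC peaks in the 6 libraries, 1 per condition, with the median over all 22367 protein-coding genes at the right. Notch2 is higher in MEF, brain and liver than in the 3 ESC libraries, Dll3 is the other way round, and Jag2 is near 0 in liver only.

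Among the receptors, Notch1, which is needed for somite formation and for T cell development, was marked along its length in all 6 libraries. The gene spans chr2:26313423-26372183 on the minus strand. Notch1 and its flanks held 21 peaks in ESC, 19 in MEF, 21 in brain, 21 in liver, 18 in shGFP and 20 in shSuz12. Of those in liver, 4 lay downstream of the gene, over the neighbour 0610009E02Rik, and no other list had a peak downstream. With the flanks, the number of peaks was thus nearly the same in all lists, but their width was not. The covered share was 35.7% in ESC, 21.2% in MEF, 43.8% in brain, 58.2% in liver, 23.1% in shGFP and 14.0% in shSuz12. At a score of at least 80 in every list, it was 9.43% in MEF and 27.4% in brain, below ESC, which stayed at 35.7%. Liver and brain had wide peaks in this gene. The liver peaks from 17430 to 24138 and from 42565 to 49191 were 6709 and 6627 bp wide, with scores of 1428 and 1673, and the brain peak from 44798 to 49368 had a score of 497, at percentile 99.92 of its list. The strongest Notch1 peak of the other lists was at 27570 to 29526 in ESC (score 1139), at 17469 to 19631 in MEF (333), at 29578 to 31626 in shGFP (294) and at 30144 to 31513 in shSuz12 (114).

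Of all bases around the 10 genes, 9354 bp in 22 regions were under a peak in all 6 libraries, and 7 of these regions were in Notch1. Such a region was present in 6 of the 10 genes with their flanks (24% of all genes with flanks have one). In Notch4 and Jag1 it lay only in the flanks. The widest in Notch1, 613 bp from 30901 to 31513, holds 263 bp of exon. Its central 300 bases, at chr2:26340827-26341126 (mm9, minus strand, 143 coding bases), are shown because 5hmC was called over them in each of the 6 conditions. They hold 8 CpG dinucleotides, the sites where 5hmC mainly occurs, in capitals here and in the next 3 sequences. The median over the central 300 bases of all ESC peaks was 6 CpGs.
Notch1: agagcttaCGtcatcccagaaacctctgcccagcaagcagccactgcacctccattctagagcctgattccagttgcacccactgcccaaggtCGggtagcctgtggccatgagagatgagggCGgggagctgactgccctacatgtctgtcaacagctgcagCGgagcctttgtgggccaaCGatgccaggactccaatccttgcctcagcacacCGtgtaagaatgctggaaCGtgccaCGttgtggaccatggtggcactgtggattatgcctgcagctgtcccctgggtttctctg

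Notch1 was also the only member whose TSS lay under a peak, and it did so in all 6 lists (1 of 10 genes in each, beside 11.8% of all genes in ESC, 6.87% in MEF, 4.46% in brain, 5.38% in liver, 11.2% in shGFP and 5.83% in shSuz12). These peaks ran from -855 to 997 in ESC (score 488), from -181 to 1010 in MEF (162), from -82 to 739 in brain (30.7), from -119 to 957 in liver (143), from -159 to 799 in shGFP (131) and from -88 to 470 in shSuz12 (83.8). The brain peak was just above the lowest score of its list, at percentile 2.63, and the ESC peak was the widest. This 5′ end is poor in CpG, with 28 in the 2001 bp around it and an observed-to-expected ratio of 0.193. The transcript with the longest coding sequence of Notch1 begins 12841 bp farther downstream, where 129 CpGs and a ratio of 0.702 were counted, and no list had a peak over that start. The nearest peak to it was 937 bp away in ESC, 4422 in MEF, 311 in brain, 454 in liver, 1775 in shGFP and 3421 in shSuz12. The marked Notch1 start is therefore an alternative 5′ end, and the start of the full coding transcript itself was under no peak in any of the 6 lists. Within 1 kb of that start, 690 bp were covered in brain, 547 in liver, 64 in ESC and 0 in MEF, shGFP and shSuz12.

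Notch2, a receptor known for its part in kidney, bile duct and B cell development, was covered more in all 3 differentiated samples than in any ESC library. The gene spans chr3:97817461-97954290 on the plus strand. It had 28 peaks in ESC, 20 in shGFP and 24 in shSuz12, against 50 in MEF, 47 in brain and 59 in liver. The covered share was 17.8%, 11.1% and 8.52% in the 3 ESC libraries and 46.4%, 48.7% and 61.6% in MEF, brain and liver. Among all genes of the same list these shares were at percentile 64.5 in ESC, 99.05 in MEF, 98.5 in brain and 98.0 in liver. Notch2 was the only member with at least 2 times as many covered bp in MEF as in ESC (1 of 10 genes, 18.1% of all genes) and the only one in brain (18.3%), the latter not at a score of at least 80, where brain had 28.0% and ESC 17.8%. In liver it shared this with Dll1 (2 of 10, 23%).

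Most of Notch2 is intron (126324 of 136830 bp), and its extra coverage was spread along the gene. With the flanks, bases under a peak in MEF, brain and liver but in none of the 3 ESC libraries summed to 21550 bp. That was 17.9% of all bases covered around this gene, against 2.15% over all protein-coding genes. Within the gene itself they formed 42 stretches. The widest of these stretches, 2256 bp, lay under a MEF peak from 40968 to 44090 (score 707), a brain peak from 40959 to 44026 (260) and a liver peak from 41771 to 46083 (1205), at percentiles 99.8, 99.1 and 98.5 of their lists. The central 300 bases of this stretch, in an intron at chr3:97860210-97860509 (mm9, plus strand), hold 4 CpGs.
Notch2: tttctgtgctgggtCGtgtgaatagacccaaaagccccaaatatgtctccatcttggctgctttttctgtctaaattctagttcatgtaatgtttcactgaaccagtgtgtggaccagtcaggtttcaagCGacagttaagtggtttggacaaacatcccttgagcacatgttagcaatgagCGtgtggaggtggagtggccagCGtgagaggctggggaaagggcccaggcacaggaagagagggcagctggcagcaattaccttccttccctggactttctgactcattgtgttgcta

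The strongest Notch2 peak of ESC was elsewhere, over the coding exons near the 3′ end, from 132352 to 133681 (score 840). The strongest of shSuz12 was at the same place, from 132657 to 133387 (121). In shGFP the strongest was from 31758 to 32778 (241). The region from 132850 to 133117, all exon, was under a peak in all 6 libraries, as 1 of 7 such regions of Notch2. Near its CpG-rich TSS (131 CpGs in the 2001 bp around it) Notch2 had an upstream peak from -1344 to -518 in ESC (score 122), from -1310 to -343 in liver (216) and from -1211 to -814 in shSuz12 (55.1), and none there in MEF, brain or shGFP.

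**Figure D2:**
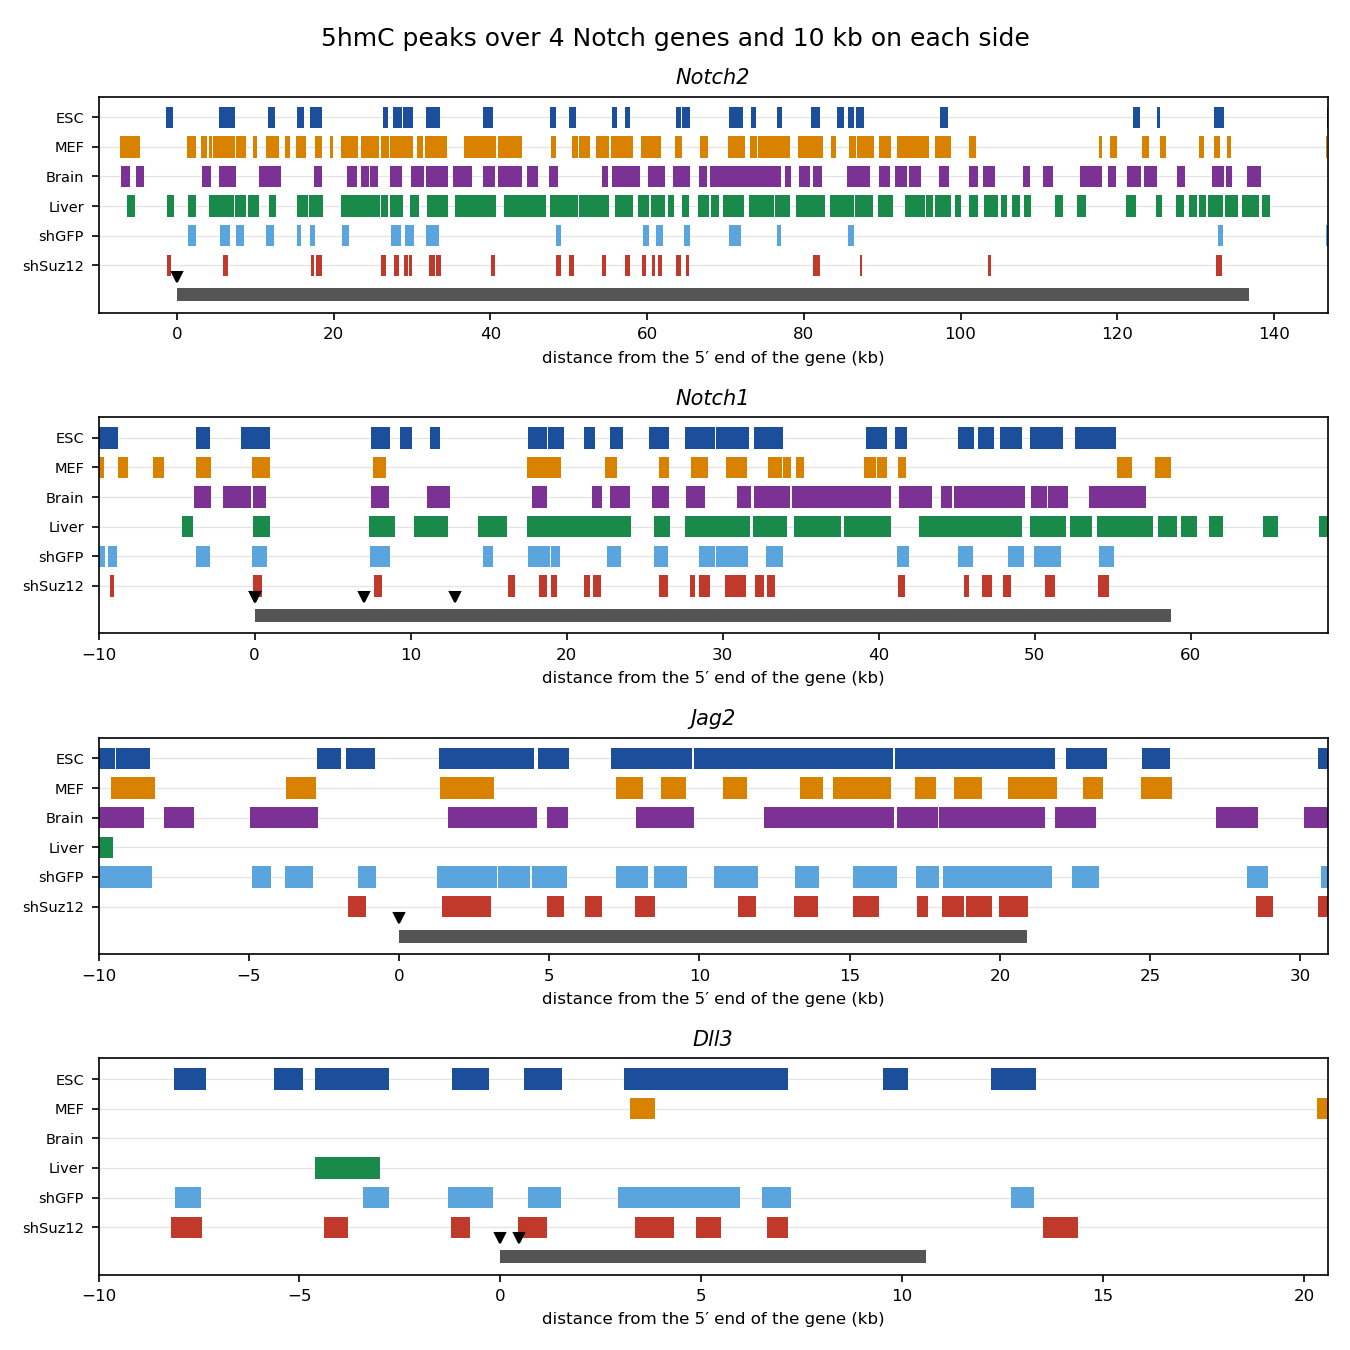
5hmC peaks (coloured bars, 1 row per library) over Notch2, Notch1, Jag2 and Dll3 and 10 kb on each side, against the distance from the 5′ end of the gene in kb. The dark bar is the gene and triangles are starts of protein-coding transcripts. Notch2 is densest in MEF, brain and liver, Jag2 is empty in liver, and Dll3 is marked mainly in the 3 ESC libraries.

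Notch3, the receptor of vascular smooth muscle cells, spans chr17:32257765-32303825 on the minus strand. It had 20 peaks in ESC, 10 in MEF, 10 in brain, 14 in liver, 19 in shGFP and 16 in shSuz12. The covered share was 28.7%, 13.04%, 19.1%, 24.5%, 23.3% and 14.9%, in the same order. ESC and its control transfection thus held about as many peaks as each other and more than the differentiated samples. The Notch3 peaks favoured exons in every list: 73.8% of its exon bp and 24.8% of its intron bp were covered in ESC, and the ratio of the covered shares was between 2.22 (liver) and 3.10 (shSuz12) over the 6 lists. The strongest peak in ESC (43695 to 44999, score 701), shGFP (43832 to 45051, 225) and shSuz12 (43788 to 44680, 98.0) lay over coding exons near the 3′ end. The upstream peak near the TSS was present in ESC (-1254 to -234, score 224), liver (-706 to -11, 92.7), shGFP (-1154 to -167, 99.96) and shSuz12 (-903 to -386, 47.7), and not in MEF or brain. From the ESC peak at 25086 on, most Notch3 peaks also overlap the annotated gene Gm17276 and cannot be assigned to either gene.

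Notch4, a receptor of endothelial cells, spans chr17:34701213-34725448 on the plus strand. Its covered share was 45.2% in ESC and 34.3% in shGFP, 14.4% in MEF, 20.1% in brain, 27.0% in liver and 15.5% in shSuz12. Within the gene itself the difference was wider, with 55.1% of the bp covered in ESC, 34.2% in shGFP, 3.55% in MEF, 16.6% in brain, 18.5% in liver and 8.66% in shSuz12. Of the 6 MEF peaks, 1 was in the gene (21492 to 22351, score 40.2) and 3 were downstream, over the neighbouring genes Pbx2 and Ager. The 5′ part of the gene had a wide peak in ESC (785 to 3419, score 1072) and shGFP (882 to 2695, 175). shSuz12 had a peak from 2218 to 2765 (46.0) there, and inside the gene brain had none before 3771, liver none before 6048 and MEF none before 21492. The strongest peak around Notch4 was downstream, over Pbx2, in ESC (29583 to 31935, score 1368), liver (28845 to 32184, 968), shGFP (29017 to 32304, 460) and MEF (29296 to 30654, 112), so that part of the signal of this window belongs to a neighbour. All 4 regions of the Notch4 window under a peak in all 6 libraries lay outside the gene, from 29589 on.

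Among the Delta-like ligands, Dll3 was the member with the largest share of bases marked in the 3 ESC libraries alone. Dll3, a divergent ligand that acts inside the cell and is needed for somite formation, spans chr7:29076673-29087257 on the minus strand. It had 8 peaks in ESC, 7 in shGFP and 8 in shSuz12, but 2 in MEF, 1 in liver and 0 in brain. The covered share was 36.2% in ESC, 24.8% in shGFP, 18.1% in shSuz12, 2.90% in MEF, 5.29% in liver and 0% in brain, where the nearest peak was 12954 bp from the TSS. At least 2 times as many bp were covered in ESC as in brain in Dll3, Notch4 and Hes1 (3 of 10, beside 31.2% of all genes). Dll3 was the only one of the 9 members with a peak in the gene in ESC that had none there in brain (17% of all genes).

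The central Dll3 peak of ESC ran from 3064 to 7165 with a score of 1598, at percentile 98.8 of its list. In shGFP the same stretch held a peak from 2920 to 5965 (score 555) and another from 6511 to 7233 (87.3). In shSuz12 it was split into 3 narrower peaks, from 3341 to 4315 (92.5), from 4865 to 5486 (59.6) and from 6638 to 7158 (47.5). Knockdown and control thus marked the same stretch to a different extent. Peaks were narrower over the whole shSuz12 list too, with a median width of 564 bp, against 776 in shGFP and 844 in ESC. The MEF list had a peak there from 3217 to 3849, with a score of 39.99.

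Around the Dll3 TSS the 3 ESC lists also held a pair of peaks that flank it. The upstream one was from -1211 to -287 in ESC (score 190.4), from -1309 to -189 in shGFP (126) and from -1218 to -760 in shSuz12 (71.5). The downstream one was from 596 to 1523 in ESC (258), from 698 to 1510 in shGFP (98.1) and from 440 to 1164 in shSuz12 (37.6). The TSS itself was bare in all lists (another coding start of Dll3, at 453, lay under the shSuz12 peak), and neither flanking peak had a counterpart in MEF, brain or liver. The other ESC peaks of Dll3 were from -8134 to -7339 (110.1), from -5644 to -4918 (179) and from -4620 to -2772 (392.2), all 3 in Timm50, from 9525 to 10150 (157) and from 12201 to 13322 (159). The liver peak, from -4621 to -3005 (207), was also in Timm50, a gene for a mitochondrial import protein that neighbours Dll3.

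Bases under peaks of the 3 ESC libraries and of no other library summed to 3166 bp around Dll3, or 24.7% of all its covered bases, against 1.82% over the 10 genes and 1.76% over all protein-coding genes. Part of these bases lay upstream over Timm50, where the widest such stretch was 638 bp, from -8097 to -7460. The largest such stretch within the gene was 622 bp of intron. Its central 300 bases, at chr7:29081932-29082231 (mm9, minus strand), hold 8 CpGs.
Dll3: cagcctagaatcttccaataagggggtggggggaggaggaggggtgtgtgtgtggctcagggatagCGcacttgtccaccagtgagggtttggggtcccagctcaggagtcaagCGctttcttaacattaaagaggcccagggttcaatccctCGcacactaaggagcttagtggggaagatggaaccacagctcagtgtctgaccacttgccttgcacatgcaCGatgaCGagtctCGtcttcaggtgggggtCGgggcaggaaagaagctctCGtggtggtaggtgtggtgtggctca

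Dll4, the ligand that restrains vessel sprouting, spans chr2:119151520-119161698 on the plus strand and was the least covered member in MEF (2.50%) and in shGFP (6.36%). In ESC it had 6 peaks that covered 20.1% of the window, of which the strongest was from 5553 to 7753 (score 1015). The others were from 2054 to 2705 (93.2), from 4477 to 5032 (80.3), from 8684 to 9729 (229), from 10389 to 11367 (333) and from 18720 to 19340 (153). The peak just past the gene end recurred as the only Dll4 peak of MEF (10561 to 11313, score 33.7) and of liver (10591 to 11390, 97.7), and it was also called in brain (10509 to 11389, 39.0) and shGFP (10589 to 11280, 83.8). Inside the gene, brain had a peak from 5930 to 6854 (37.4), shGFP one from 5774 to 6999 (129) and shSuz12 a pair from 4462 to 5058 (43.4) and from 5746 to 7058 (117). The body of Dll4 was thus marked in the 3 ESC lists and in brain, at the same place, and bare in MEF and liver. The brain peak there scored below 80, the lowest score of the liver list, so brain and liver cannot be compared at this place. The other peaks of brain were from -5218 to -3703 (50) and from 18590 to 19380 (33.6), and the other one of shSuz12 was from 18754 to 19350 (35.2). No list had a peak within 1 kb of its TSS.

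Dll1, the ligand that drives somite borders and neurogenesis, spans chr17:15504318-15513836 on the minus strand. It was most covered in liver, where 9 peaks covered 39.8% of the window, against 19.2% in ESC, 13.9% in MEF, 19.0% in brain, 8.87% in shGFP and 4.23% in shSuz12. The 3′ part of the gene carried the strongest peak in ESC (7347 to 9060, score 1091), brain (6205 to 9786, 334), liver (5838 to 9506, 944), shGFP (7682 to 8865, 126) and shSuz12 (7616 to 8262, 49.3). MEF had a peak there too (7870 to 9233, 71.9), and 393 bp, from 7870 to 8262 and all exon, were under a peak in all 6 lists. Another stretch was marked in ESC (2762 to 3981, 539), brain (2843 to 3963, 74.8), liver (2795 to 3997, 243) and shSuz12 (2912 to 3514, 35.0), and a peak beyond it was called in ESC (4200 to 5080, 197), liver (4099 to 5078, 230.1) and shGFP (4131 to 4955, 104). Upstream, ESC (-6553 to -5623, 211), MEF (-6639 to -5775, 74.5), brain (-6527 to -5625, 42.5) and liver (-7066 to -5523, 262) had a peak at the same place, and the 2 transfected libraries had none. The start of the gene was bare. The protein-coding transcript of Dll1 begins 896 bp after the 5′ end, and the nearest peaks to that start were 939 bp away in liver, 1866 in ESC, 1947 in brain, 2016 in shSuz12, 3235 in shGFP and 5339 in MEF.

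Of the Jagged ligands, Jag2 was covered more than Jag1 in every list but that of liver. Jag2, a ligand needed for limb and palate development, spans chr12:114146801-114167706 on the minus strand and was the most heavily marked of the 10 genes on average over the 6 lists (38.0% of its window). The covered share was 60.9% in ESC, 35.4% in MEF, 56.7% in brain, 49.4% in shGFP and 24.7% in shSuz12, but 1.15% in liver. Among all genes of each list these were percentiles 98.8, 96.6, 99.45, 99.4, 97.3 and 34.4, with liver last. The gene body of Jag2 had no liver peak at all, and the single liver peak of the window ran from -10686 to -9529 (score 237), over the neighbour Nudt14. Of the 9 members with a peak in the gene in ESC, 3 (Dll3, Dll4 and Jag2) had none there in liver, beside 22.7% of all genes.

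In ESC 85.9% of the Jag2 gene was covered by 5 peaks. The peaks from 9814 to 16454 and from 16524 to 21844 were 6641 and 5321 bp wide and both had a score of 3100, which 303 of the 171865 nuclear ESC peaks reached. In shGFP the strongest Jag2 peak was from 18102 to 21729 (score 707), in brain from 17964 to 21494 (307), in MEF from 20268 to 21900 (173) and in shSuz12 from 1438 to 3047 (153). Another peak shared by these 5 lists lay in an intron near the start, from 1322 to 4506 in ESC (score 1812), from 1352 to 2480 in MEF (101), from 1630 to 4608 in brain (171), from 1279 to 3263 in shGFP (365) and from 1438 to 3047 in shSuz12. Jag2 has the most CpGs of the 10 genes around its TSS, 259 in 2001 bp, a count above 99.9% of all genes, and this stretch was bare in all 6 lists up to 760 bp from the TSS. The largest stretch under a peak in the other 5 libraries and not in liver was 855 bp, and its central 300 bases, at chr12:114152007-114152306 (mm9, minus strand, 114 coding bases), hold 8 CpGs.
Jag2: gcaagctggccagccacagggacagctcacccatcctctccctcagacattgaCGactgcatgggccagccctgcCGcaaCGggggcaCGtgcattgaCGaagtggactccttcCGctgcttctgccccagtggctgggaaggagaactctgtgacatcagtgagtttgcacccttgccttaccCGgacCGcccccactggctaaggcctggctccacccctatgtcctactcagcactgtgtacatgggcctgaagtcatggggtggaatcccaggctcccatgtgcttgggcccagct

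Jag1, the ligand whose loss causes Alagille syndrome with too few bile ducts, spans chr2:136907192-136942380 on the minus strand. It was most covered in brain, with 17 peaks over 39.2% of the window, and then in MEF, with 15 peaks over 30.0%. Liver had 10 peaks (20.6%), ESC 13 (19.7%), shGFP 7 (12.04%) and shSuz12 10 (10.3%). The brain and MEF lists start at lower scores than those of liver and ESC. At a score of at least 80 the share was 19.1% in brain and 15.3% in MEF, below liver and ESC. The strongest peak was in the 5′ part of the gene in ESC (6252 to 7398, score 362) and MEF (7431 to 9832, 310.4), in the 3′ part in brain (24144 to 25330, 144) and liver (24312 to 26030, 293), past its 3′ end in shGFP (35306 to 36954, 185) and upstream in shSuz12 (-1825 to -936, 79.6). The only Jag1 region under a peak in all 6 lists was also past the 3′ end, from 35572 to 36037. An upstream peak was called in brain (-2197 to -910, score 87.4), liver (-1904 to -921, 156) and shSuz12. Farther from the TSS, a peak was called in ESC (-4806 to -4210, 110.5), MEF (-4906 to -3951, 51.7) and also shSuz12 (-4814 to -4213, 60.9). The shGFP list had none upstream.

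Hes1, the target gene, was bare over its body in all lists except for 40 bp of its 3′ end in liver. It spans chr16:30064470-30067882 on the plus strand, and its peaks all lay in the flanks. ESC had 5, from -10102 to -9481 (score 90.0), -9045 to -7941 (327), -6217 to -5511 (91.3), 7510 to 8146 (116) and 13204 to 13900 (93.3). MEF had 5, from -8792 to -7998 (73.1), -7906 to -7364 (40.2), -7161 to -4818 (222), -4249 to -2784 (119) and 10443 to 10985 (35.8). Liver had 4, from -10726 to -9449 (299), -6273 to -5209 (171), -3643 to -1242 (599) and 3373 to 4313 (139.6). The liver peak from -3643 came closest to the TSS, at percentile 93.2 of its list, and the MEF peak from -7161 was at percentile 93.5 of its own. Brain had 1 peak, from 3442 to 4408 (41.8), at the same place as the last of liver. shGFP had 3, from -8996 to -7906 (166), -6073 to -5321 (97.9) and 10484 to 11020 (52.7), and shSuz12 had 2, from -9003 to -8308 (73.5) and -3794 to -3349 (42.9). A peak between 8 and 9 kb upstream was thus shared by ESC, shGFP, shSuz12 and MEF. No base around Hes1 was under a peak in all 6 lists or in all 4 cell types.

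The protein-coding transcript of Hes1 begins 956 bp after the annotated 5′ end, and the nearest peak to that start was between 2198 bp (liver) and 6467 bp (ESC) away. The 250 bases before it, at chr16:30065176-30065425 (mm9, plus strand), are shown because RBPJ, the partner of the Notch intracellular domain, is known to act there and no list had a peak over them. The capitals mark the letters TGGGAA, the core of the motif bound by RBPJ, found at -80 and -66 of the coding start, both as written.
Hes1: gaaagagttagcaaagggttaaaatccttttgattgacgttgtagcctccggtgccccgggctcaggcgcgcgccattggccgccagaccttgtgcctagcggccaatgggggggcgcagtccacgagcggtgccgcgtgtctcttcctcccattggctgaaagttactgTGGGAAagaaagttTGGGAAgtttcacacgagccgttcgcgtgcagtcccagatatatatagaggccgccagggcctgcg
On either strand, TGGGAA was found in the same window of 20.99% of 22354 coding promoters, and 2.64% held it at least 2 times. Among the members it was in 2 windows, those of Notch1 and Hes1. The letters CACNAG, the N-box bound by Hes proteins, were in 35.65% of the windows and in 6 of the 10 members. A match of letters is a description of the sequence and was not tied to any peak.

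**Figure D3:**
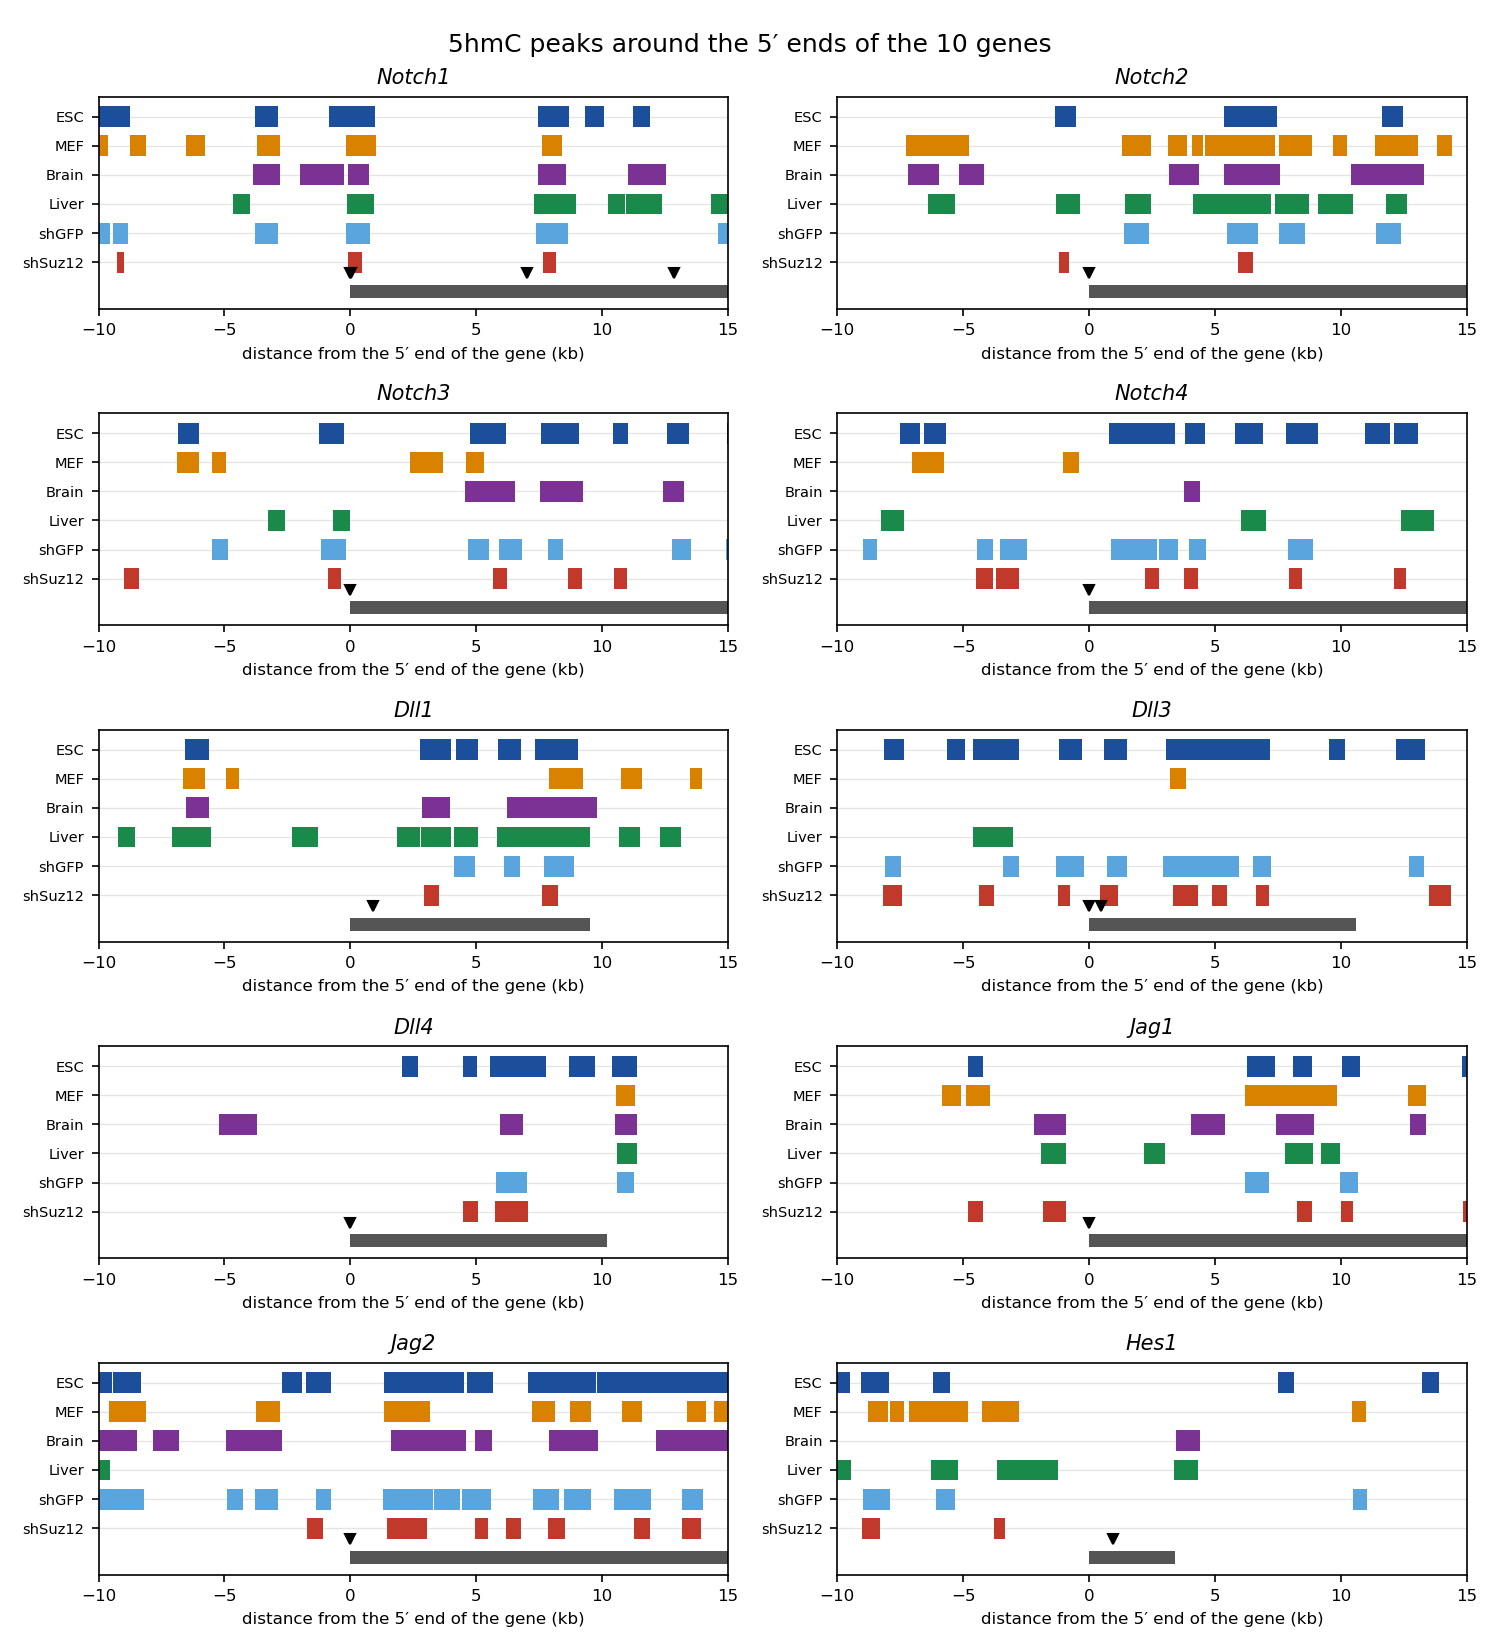
5hmC peaks (coloured bars, 1 row per library) from 10 kb upstream to 15 kb downstream of the 5′ end of each of the 10 genes, in kb. The dark bar is the gene, triangles are starts of protein-coding transcripts, and only the 5′ end of Notch1 lies under a peak, in all 6 rows.

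At the starts of the 10 genes, the counts of members with a peak were 5 or 6 in the 3 ESC libraries, 4 in liver and 2 in both MEF and brain. This difference was not tested. It did not hold for shSuz12 at a score of at least 80, where shSuz12, MEF and brain had 1 each. With 2 kb on each side of the TSS, liver and the 3 ESC libraries had 6 each, MEF 4 and brain 3. With 500 bp, liver and the 3 ESC libraries had 3 each, MEF 2 and brain 1. A peak within 1 kb of the TSS was found for 6 genes in ESC (Notch1, Notch2, Notch3, Notch4, Dll3 and Jag2), beside 31.9% of all genes. There were 2 in MEF (Notch1 and Notch4, beside 30.1%), 2 in brain (Notch1 and Jag1, beside 20%) and 4 in liver (Notch1, Notch2, Notch3 and Jag1, beside 29.4%). shGFP had 5 (beside 27.1%) and shSuz12 5 (beside 21.4%). Dll1, Dll4 and Hes1 had none in any list. With 10 genes, counts of 2 to 4 are near their background, and those of 5 and 6 are above it by 2 or 3 genes. At the start of the longest coding transcript instead, the counts were 6 in ESC (32% of all genes), 1 in MEF (30.1%), 2 in brain (20.2%), 5 in liver (29.4%), 4 in shGFP (27.2%) and 4 in shSuz12 (21.6%). That start was under a peak in no member in ESC (11.7% of all genes), MEF (6.68%), brain (4.53%), liver (5.28%) and shGFP (11.2%), and in 1 of 10, Dll3, in shSuz12 (5.91%). The covered promoter bp in ESC were 1853 for Notch1, 1119 for Dll3, 767 for Notch3, 483 for Notch2 and 216 each for Notch4 and Jag2.

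Pooled over the bp of the 10 genes, exons were covered more than introns in 5 of the 6 lists, by less than over all protein-coding genes. In ESC 47.5% of the exon bp of the 10 genes and 31.3% of their intron bp were under peaks, a ratio of 1.52, against 2.53 over all protein-coding genes. The ratio was 1.54 in shGFP (2.63 over all genes), 1.58 in shSuz12 (2.55), 1.11 in brain (1.64) and 1.04 in liver (1.84). In MEF it was 0.736 (1.17 over all genes), a value set by Notch2, which has 126324 of the 291970 intron bp and a ratio of 0.631 in MEF. The other 7 members with MEF peaks in the gene had ratios above 1 there, from 1.06 (Notch1) to 24.5 (Notch4). Single genes differed from the pooled values in other lists too. In ESC the ratio was 2.98 in Notch3, above that of all genes, but 0.887 in Notch1 and 0.606 in Dll3. In liver it was 1.27 in Notch1, 1.16 in Notch2, 2.22 in Notch3, 1.49 in Notch4, 1.75 in Jag1 and 1.02 in Dll1.

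With all peaks of each list, Notch3, Notch4, Dll3, Dll4 and Jag2 had more covered bp in ESC than in MEF, brain and liver. Notch2 and Jag1 had fewer in ESC than in each of those lists, but Jag1 did not at a score of at least 80. At least 2 times as many bp were covered in ESC as in MEF in Notch3, Notch4, Dll3 and Dll4 (4 of 10, beside 40.1% of all genes). The same was found against liver for Dll3, Dll4 and Jag2 (3 of 10, beside 33.6%). These shares were close to those of all genes. The lists start at different scores, and at a score of at least 80 in every list the covered share of Notch2 was 17.8% in ESC, 35.7% in MEF, 28.0% in brain and 61.6% in liver, so that ESC was still the lowest of the 4 but brain no longer reached 2 times its coverage. At that score Dll3 was at 36.2% in ESC, 5.29% in liver and 0% in both MEF and brain, and Jag2 at 60.9% in ESC, 21.9% in MEF, 47.2% in brain and 1.15% in liver. Jag1 was at 19.7% in ESC, 15.3% in MEF, 19.1% in brain and 20.6% in liver, so ESC was then below liver only.

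The shGFP and shSuz12 libraries ask how 5hmC in ESCs changes when PRC2 is depleted. The shGFP list itself differed from that of the untransfected ESCs: over the genome it covered 0.676 times as many bp, and over the 10 genes 0.686 times, between 0.317 (Dll4) and 0.814 (Notch3). At least 2 times as many bp were covered in ESC as in shGFP in Dll1 and Dll4 (2 of 10, beside 27.8% of all genes), and in no member was it the other way round (5.18%). Of the bp covered in shGFP around the 10 genes, 81.7% were also covered in ESC, against 77.4% over all genes.

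From shGFP to shSuz12 the covered bp of the 10 genes went from 107500 to 67268, a ratio of 0.626, while the number of peaks was 111 and 110. The same ratio was 0.687 over all protein-coding genes and 0.689 over the genome, so the ratio of the Notch genes was close to that of the lists as wholes. Of the bp covered in shGFP around the 10 genes, 38.5% were also covered in shSuz12 (36.7% over all genes), and of those covered in shSuz12, 61.5% were also covered in shGFP (53.4%). By gene the ratio was 0.605 for Notch1, 0.770 for Notch2, 0.638 for Notch3 and 0.451 for Notch4. Among the ligands it was 0.477 for Dll1, 0.730 for Dll3, 1.31 for Dll4, 0.857 for Jag1 and 0.499 for Jag2, and for Hes1 it was 0.480. Their median was 0.622, inside the quartiles of 0.484 to 0.904 over 16964 genes (median 0.668). At least 2 times as many bp were covered in shGFP as in shSuz12 in Notch4, Dll1, Jag2 and Hes1 (4 of 10, beside 25.4% of all genes), and in no member was shSuz12 covered 2 times as much (8.69%). Dll4 was the only member covered more in shSuz12, where the peaks with no shGFP counterpart, from 4462 to 5058 and from 18754 to 19350, had scores of 43.4 and 35.2, below the lowest score of the shGFP list. Its ratio was 0.685 at a score of at least 80 and 1.07 in the better-scored 50% of each list.

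Notch4 and Jag2 showed where coverage was absent in shSuz12. In Notch4 the last peak inside the gene was at 12113 to 12578 in shSuz12 (score 41.7), whereas shGFP had 5 peaks between 16573 and 22362, the strongest from 20874 to 22362 (score 168), and ESC had 3, with scores of 184, 927 and 774. In Jag2 the shGFP peak from -10518 to -8214 (score 313), which lay over the neighbour Nudt14, had no shSuz12 peak over it. The shGFP peaks from -4886 to -4271 (51.9) and from -3791 to -2856 (92.0) had none either. Untransfected ESC also had no peak over those last places, and the score of 51.9 was near the lowest of the shGFP list. The Jag2 body had 11 shSuz12 peaks over 41.1% of the gene and 10 shGFP peaks over 65.2%.

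At the starts, 5 members had a shGFP peak within 1 kb of the TSS, and all 5 had fewer covered promoter bp in shSuz12, as did 89.3% of all genes with such a peak. The bp went from 959 to 559 in Notch1, from 834 to 518 in Notch3, from 119 to 0 in Notch4, from 1115 to 802 in Dll3 and from 241 to 0 in Jag2. Notch4 and Jag2 thus had none left (2 of 5, beside 44.1%), and Notch2 and Jag1 had a promoter peak in shSuz12 only (2 of 5 in that list, beside 29.2%). In all 4 genes the peak crossed the 1 kb limit, and the covered stretch was 65 bp in Jag1 and 187 bp in Notch2. Only in Jag2 did both lists have a peak near that limit, from -1379 to -760 in shGFP (score 70.95) and from -1706 to -1087 in shSuz12 (50.8). In Notch2 and Jag1, shGFP had no upstream peak, and its nearest peak was 1383 and 6199 bp from the TSS. The shSuz12 peaks there scored 55.1 and 79.6, above the lowest score of the shGFP list. In Notch4 the nearest shSuz12 peak was 2218 bp from the TSS. Summed over the 10 genes the promoter bp were 3268 in shGFP and 2131 in shSuz12, a ratio of 0.652, against 0.540 over all genes.

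**Figure D4:**
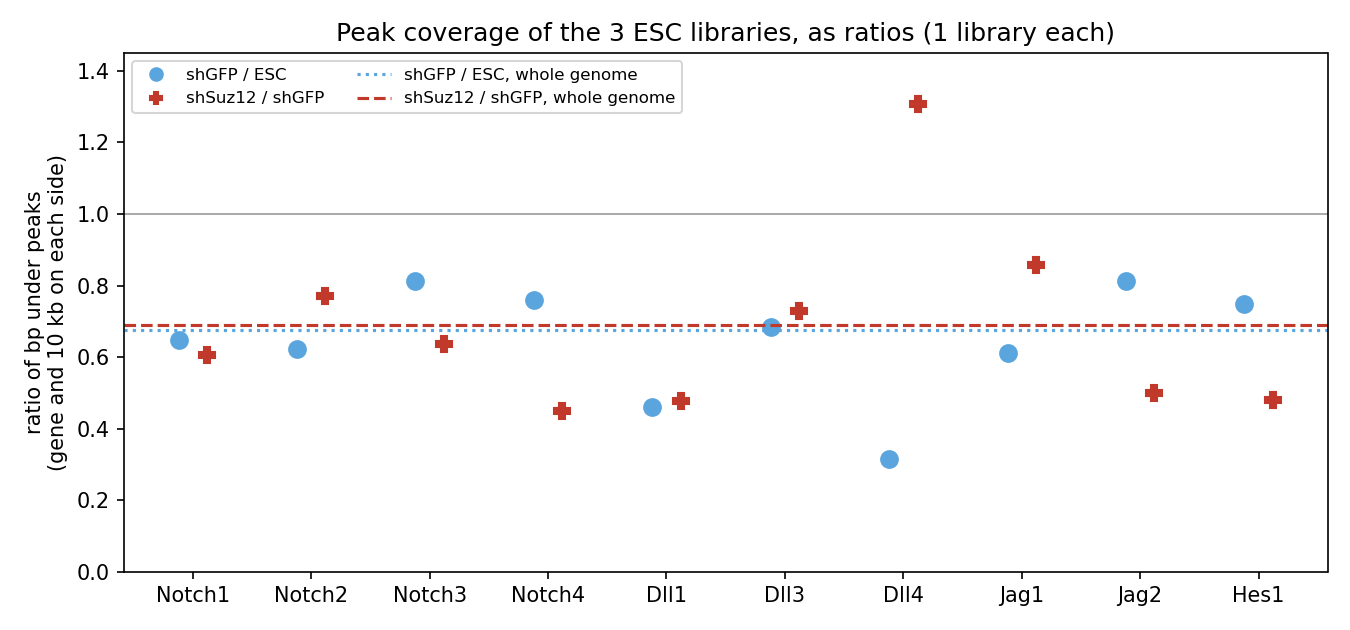
Ratio of bp under 5hmC peaks in each gene and its flanks of 10 kb, for shGFP over ESC (circles) and shSuz12 over shGFP (crosses), 1 library each, with the whole-genome ratios of 0.676 and 0.689 as lines. The cross of Dll4 is at 1.31, and those of the other 9 genes lie below 1.

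The rest of the pathway was described with a list of 40 genes for receptor processing, receptor glycosylation, ligand endocytosis, nuclear effectors, modulators, other ligands and further targets. A peak within 1 kb of the TSS was found for 16 of the 40 in ESC (40%, beside 31.9% of all genes), 15 in MEF (37.5%, beside 30.1%), 4 in brain (10%, beside 20%), 16 in liver (40%, beside 29.4%), 15 in shGFP (37.5%, beside 27.1%) and 6 in shSuz12 (15%, beside 21.4%). The 6 further target genes had 4 in ESC, 1 in MEF, 3 in brain, 2 in liver, 5 in shGFP and 2 in shSuz12. The 9 receptor-processing genes, which include the γ-secretase subunits, had 2 in ESC, 5 in MEF, 0 in brain, 6 in liver, 2 in shGFP and 1 in shSuz12. With 6 and 9 genes these counts are given as a description, beside the same shares of all genes. The median covered share of the window over the 40 was 22.5% in ESC, 15.5% in MEF, 16.5% in brain, 24.6% in liver, 16.2% in shGFP and 8.29% in shSuz12, each of them above the median of all genes in the list, as for the 10 members.

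Of the 40 genes, 2 had a promoter peak in ESC and shGFP and none in MEF, brain and liver, a pattern of 4.99% of all genes. They were Dlk1, an atypical ligand of imprinted expression, and Nrarp, a target gene that feeds back on the pathway. Covered promoter bp of Dlk1 were 922 in ESC, 774 in shGFP and 76 in shSuz12. Those of Nrarp were 793 in ESC, 698 in shGFP and 346 in shSuz12. Of the 10 members, Dll3 and Jag2 had the same pattern, with 802 and 0 covered promoter bp in shSuz12. None of the 40 had a promoter peak in all 6 lists.

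For the 3 most covered members, the gene with the most similar coverage over the 6 lists was sought among all genes with windows of like length, by the Euclidean distance of the 6 percentages. For Jag2 it was Mtss1l, at a distance of 19.4 among 5097 genes, with 19.1% in liver against 1.15% for Jag2, so no gene of its size shared its coverage closely. For Notch1 it was Brd1 (distance 9.76 among 2384 genes), with 41.0% in ESC, 40.2% in brain and 52.3% in liver. For Notch2 it was Sash1 (10.8 among 1112 genes), with 18.4% in ESC, 38.6% in MEF, 53.3% in brain and 64.6% in liver. The likeness is over 6 libraries of 1 sample each and is a description.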

How the data were processed

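Genomic DNA of 6 samples, 1 per condition, was profiled by GLIB-Seq. Per the study's methods, the authors aligned reads to the mm9 assembly (Bowtie 0.12.7), reporting unique hits with up to 2 mismatches, collapsed redundant reads and called peaks library by library with MACS 1.4.1 (CASAVA 1.8 is also named in the submitters' processing notes). The deposited files hold the position and score of each peak. The peak-calling threshold and control are not given in the sources used here, and without read counts the depth per sample, and so the precision of a value, is unknown. The lists hold 171866 (ESC), 217026 (MEF), 157512 (brain), 130409 (liver), 132999 (shGFP) and 138708 (shSuz12) peaks. Mitochondrial peaks were left out, 1 in each of the first 4 lists and 3 in each of the others. The 2 RNA-Seq samples were not analysed here.

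Genes and exons were taken from GENCODE M1 on NCBIM37, the assembly named mm9 (chromosome 1 of 197195432 bp, with 0 peaks past a chromosome end). A peak was assigned to a gene when it overlapped the gene with 10 kb on each side by at least 1 bp. Covered bp are the bp of this window under any peak of a list, promoters were the TSS with 1 kb on each side, and 2 times as many covered bp was the limit used for counts. Sequences were read from NCBIM37. The text names the 10 members, from a list of 40 pathway genes those with a promoter peak in ESC and shGFP but not in MEF, brain and liver or with one in all 6 lists (at most 3 of each), and for the 3 most covered members the gene with the closest coverage. The members and lists were chosen with earlier results of these data known. Alternatives were promoters of 2 kb or 500 bp, a score of at least 80, the better-scored 50% of each list, genes without flanks, peak midpoints and any coding TSS. The start of the longest coding transcript was chosen as an alternative after seeing the data. The counting steps were tested on simulated peaks. Software was matplotlib 3.10.9, scipy 1.17.1, pandas 2.3.3 and numpy 2.4.6 under Python 3.11.15.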

Additional observations from a re-analysis of the deposited data

How the results depend on the processing

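No paired analysis was possible because there is 1 library per condition. Of 85 values computed under alternatives, 44 stayed within the limit set for a count or a share, 41 moved and 0 reversed. The cause of these moves was not tested, beyond the fact that a stricter score or a narrower stretch leaves fewer peaks. With promoters of 500 bp on each side, 3 members had a promoter peak in ESC, 1 in brain, 3 in shGFP and 3 in shSuz12, and with 2 kb 4 had one in MEF. A score of at least 80 left 1 in MEF, 1 in brain and 1 in shSuz12, and the better-scored 50% of each list left 1 in MEF and 1 in liver. Around the start of the longest coding transcript, an alternative chosen after seeing the data, 1 member had a promoter peak in MEF.

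At a score of at least 80 the covered share of the 10 windows together was 16.2% in MEF, 18.3% in brain, 14.4% in shGFP and 2.75% in shSuz12, with 52, 44, 71 and 18 peaks. In the better-scored 50% of each list the share was 21.9% in ESC, 19.2% in MEF, 27.0% in brain, 29.5% in liver, 13.8% in shGFP and 6.56% in shSuz12, with 85 peaks in ESC, 69 in MEF, 67 in shGFP and 55 in shSuz12. In the genes without flanks it was 34.2% in ESC, 31.6% in MEF, 43.4% in brain, 45.7% in liver, 22.3% in shGFP and 14.1% in shSuz12. With all peaks and flanks it was 28.2%, 26.5%, 33.8%, 36.3%, 19.3% and 12.1%, in that order.

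The ratio of covered bp of shSuz12 to shGFP was 0.192 at a score of at least 80 (0.242 over the genome) and 0.477 in the better-scored 50% of each list (0.603), so its size depends on where the lists start. The covered promoter bp were 6960 in shGFP and 4732 in shSuz12 with 2 kb on each side, and 1306 and 735 with 500 bp. In each of these alternatives shSuz12 had fewer covered bp than shGFP.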
